A study of Homo sapiens with 12 samples.

Results

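Immediate early regulators outside the AP-1 family were followed through RNA-seq of KYSE150, an established human esophageal squamous cell carcinoma line. The 10 genes were EGR1, IER2, IER3, IER5, ZFP36, ZFP36L1, ZFP36L2, KLF6, KLF10 and MYC. They were picked by symbol, and they and the gene lists below were chosen with earlier results of these data known. The shares over all genes tested that stand beside their counts are therefore a description only. Each of the 10 matched 1 row among the 24302 features of the count table, and all 10 were among the 14792 genes tested. The 12 libraries fall into 4 groups of 3: cells expressing GFP, cells expressing GFP-TFAP2β (called WT here), cells expressing GFP-TFAP2β-Mut_IDR3 (Mut_IDR3) and cells expressing GFP-TFAP2β-ΔIDR3 (dIDR3). TFAP2β belongs to the AP-2 transcription factors, and IDR stands for intrinsically disordered region, a stretch of protein that has no fixed fold. The labels describe both altered forms as deficient in phase separation, the gathering of protein into condensates. All groups carry a GFP construct in the same line, and the labels give neither the promoter driving the constructs nor the time of harvest. Nor do they say whether each replicate was its own culture. The p-values therefore rest on the spread among these libraries alone, which may be technical.

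Immediate early genes are transcribed soon after a growth factor, serum or stress signal reaches the nucleus, without prior protein synthesis. Many are switched on by the ERK kinases through serum response factor (SRF), which binds CArG boxes in their promoters, and its ELK partners. Their products include transcription factors that pass the signal on, such as EGR1, KLF6, KLF10 and MYC, and RNA-binding proteins of the ZFP36 family, which bind AU-rich elements and shorten the life of short-lived mRNAs.

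Library totals ran from 30652851 to 43464956 counts, and the smallest raw count of any member in any library was 151, for EGR1. TFAP2B, the gene that encodes the expressed protein, was at 0.124 ± 0.142 CPM (CPM is the count scaled to library size, SD, n = 3) in GFP, 280.3 ± 45.6 in WT, 701.8 ± 25.9 in Mut_IDR3 and 704.3 ± 62.8 in dIDR3. The altered forms were thus present at higher TFAP2B mRNA than WT, and the part of that gap in the comparisons with WT was not tested. All 9 squamous epithelial markers passed the filter on low counts, with a summed level of 5867.0 to 6088.4 CPM in GFP, 7509.8 to 8645.4 in WT, 5904.5 to 6061.9 in Mut_IDR3 and 5003.3 to 5250.4 in dIDR3. Of the markers of other cells, 1 of 7 fibroblast, 3 of 5 leukocyte and 2 of 3 endothelial genes passed the filter, with PTPRC and PECAM1 at 0 in every library. The summed leukocyte markers lay at 81.5 to 102.9 CPM in WT, against 69.6 to 73.7 in GFP, 50.5 to 56.6 in Mut_IDR3 and 49.9 to 50.5 in dIDR3. The summed fibroblast markers lay at 2.61 to 3.68 CPM in GFP, 5.34 to 6.56 in WT, 3.75 to 4.47 in Mut_IDR3 and 4.27 to 5.35 in dIDR3, where the top reached the WT range. Mitochondrial genes took 10.3% ± 0.406 of the counts in GFP, 5.75% ± 0.356 in WT, 8.36% ± 0.235 in Mut_IDR3 and 7.72% ± 0.0634 in dIDR3 (SD, n = 3). The part of these markers and shares in the members' values was not tested. In bulk RNA, fewer cells of a type and less RNA per cell cannot be told apart.

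The promoters of EGR1 and ZFP36 are shown because these members had the largest rises in WT and their promoters hold different motifs. Both come from RefSeq (GRCh38.p14) and end before the transcribed part. The EGR1 window is chr5:138465229-138465478, plus strand, 250 bases, with CArG boxes in capitals. The ZFP36 window is chr19:39406597-39406812, plus strand, 216 bases up to the gene start of GENCODE release 29, with matches to GCCNNNGGC, the palindrome bound by AP-2 factors, in capitals.
EGR1: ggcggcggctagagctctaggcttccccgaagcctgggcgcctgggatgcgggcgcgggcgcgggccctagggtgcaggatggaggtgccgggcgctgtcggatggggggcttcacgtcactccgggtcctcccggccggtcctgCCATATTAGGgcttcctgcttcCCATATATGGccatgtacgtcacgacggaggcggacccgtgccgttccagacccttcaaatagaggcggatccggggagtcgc
ZFP36: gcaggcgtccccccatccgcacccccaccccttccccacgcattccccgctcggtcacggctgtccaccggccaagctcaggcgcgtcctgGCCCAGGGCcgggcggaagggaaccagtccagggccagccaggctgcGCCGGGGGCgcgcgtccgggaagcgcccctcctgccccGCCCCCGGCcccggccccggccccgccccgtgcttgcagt

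RefSeq promoter windows were at hand for 6 of the 10 members (7 windows, ZFP36L1 having a pair), and the 250 bases before each RefSeq start were searched on both strands. Distances below count from that start, which for ZFP36 lies downstream of the GENCODE start where the printed stretch ends. The EGR1 window held 2 CArG boxes, which begin 105 and 83 bases before the start, while 1.16% of all 35116 windows hold any. It had no match to GCCNNNGGC. The ZFP36 window held 3 matches to GCCNNNGGC, at 159, 112 and 74 bases before the RefSeq start. At least 1 such match stands in 19.8% of all windows, and at least 3 in 292 windows (0.832%). The cut of 3 was taken from ZFP36 itself, so the latter share is a description only. The printed ZFP36 stretch is 79.2% GC, and the windows it is set beside were not matched for GC content. The ZFP36 match at 74 overlaps a GC box (GGGCGG on either strand, found in 42.6% of windows). One of the ZFP36L1 windows held the CRE TGACGTCA, at 52 bases before the start, a motif found in 1.65% of windows. No member window held the AP-1 motif TGANTCA (6.57% of windows) or TATAAA (10.7%). The windows of IER2, IER5, KLF6 and ZFP36L1 had neither a CArG box nor GCCNNNGGC. ZFP36 was thus the only member of the 6 with a match to GCCNNNGGC. A match is a description of the letters and does not show that a factor binds there.

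In WT, 9 of the 10 members rose against GFP and the tenth, KLF10, did not pass the test (edgeR quasi-likelihood test, Benjamini-Hochberg adjusted p under 0.05). Over all genes tested, 54.9% were called in this comparison and 27.7% were called higher. The members' median log2 fold change was 1.28, beside -0.01 over all genes tested. The rises ran from 1.62-fold for ZFP36L1 to 6.40-fold for EGR1. At least 2-fold rises were called for 6 members (EGR1, ZFP36, IER3, ZFP36L2, IER2 and KLF6), beside 4.18% of all genes tested. The plot of CPM by library shows the values behind these changes.

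**Figure D1:**
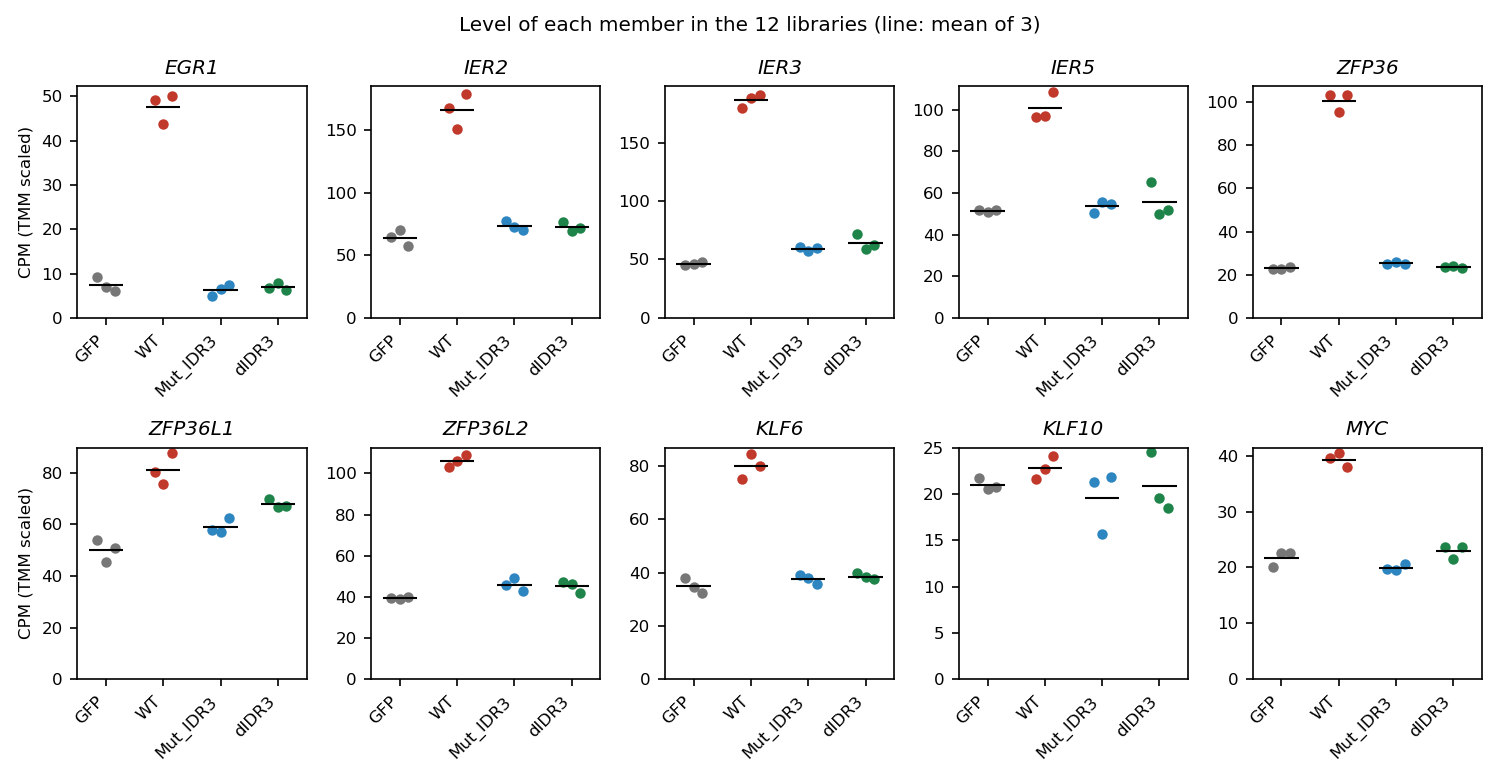
CPM (TMM scaled, linear axis from 0) of the 10 members in the 12 libraries; each point is a library, each line the mean of 3, and the groups are GFP, WT, Mut_IDR3 and dIDR3. All 3 WT libraries lie above the other 9 in every panel but KLF10, where the groups overlap.

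EGR1, a zinc finger transcription factor and a classic target of SRF, showed the largest rise of the members. The gene lies at chr5:138465490-138469315 on the plus strand (GRCh38, GENCODE release 29, as for all members below), and its longest coding transcript has 2 exons. Its level was 9.15, 7.08 and 6.15 CPM in the GFP libraries and 49.1, 43.7 and 50.1 in WT. In Mut_IDR3 it was 4.85, 6.57 and 7.31 CPM, and in dIDR3 6.74, 7.95 and 6.39. The WT libraries stood apart from the other 9, and the 3 remaining groups overlapped one another. The log2 fold change of WT over GFP was 2.68 ± 0.16 (SE, n = 3 per group, adjusted p = 5.3e-09), and 1.22% of all genes tested had a larger rise. Against WT, EGR1 was 7.59-fold lower in Mut_IDR3 (adjusted p = 2.86e-09) and 6.78-fold lower in dIDR3 (adjusted p = 3.73e-09). Against GFP, the difference was -0.25 on the log2 scale in Mut_IDR3 (95% interval -0.59 to 0.10) and -0.08 in dIDR3 (-0.42 to 0.26), neither past the test.

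The IER genes carry the name immediate early response but encode unrelated or distantly related proteins. IER2 and IER5 belong to a family of nuclear proteins that regulate transcription and the heat shock response, and IER3 is a short protein tied to cell survival and ERK signalling. IER2 (chr19:13150415-13154908, plus strand, a single exon) was at 64.8, 70.1 and 57.9 CPM in GFP and at 167.6, 151.4 and 179.5 in WT. It was at 77.3, 72.7 and 70.0 CPM in Mut_IDR3 and at 76.7, 69.3 and 72.2 in dIDR3. The WT libraries were the highest 3, while the GFP libraries overlapped those of both altered forms. The log2 fold change of WT over GFP was 1.37 ± 0.08 (adjusted p = 3.51e-09), a 2.59-fold rise.

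IER3 (chr6:30743199-30744554, minus strand) was at 45.3, 45.7 and 47.4 CPM in GFP and at 179.8, 188.0 and 191.2 in WT. Its level was 60.4, 57.4 and 59.5 CPM in Mut_IDR3 and 71.6, 59.2 and 62.5 in dIDR3. The GFP libraries were the lowest 3, the WT libraries the highest, and both altered forms lay between and overlapped each other. WT exceeded GFP by 2.01 ± 0.07 on the log2 scale (4.04-fold, adjusted p = 8.56e-12). IER3 had the highest level per transcript length of the members, 34.2 ± 0.805 CPM per kb in GFP and 138.0 ± 4.37 in WT, on the longest coding transcript of GENCODE.

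IER5 (chr1:181088712-181092899, plus strand, a single exon) was at 51.8, 50.7 and 52.0 CPM in GFP and at 96.7, 96.8 and 108.5 in WT. It was at 50.4, 55.8 and 54.5 CPM in Mut_IDR3 and at 65.3, 49.9 and 51.7 in dIDR3. Only the WT libraries stood apart, and replicate 1 of dIDR3 was the highest of the rest. The rise in WT was 0.97 ± 0.09 on the log2 scale (1.95-fold, adjusted p = 4.71e-07). Per kb, IER3 made up 50.0% ± 1.94 of the summed IER level in GFP and 63.1% ± 1.70 in WT, and IER5 18.0% ± 0.589 and 11.0% ± 0.295. These shares did not overlap between GFP and WT, and the exact two-sided permutation test gave p = 0.1, the smallest that 3 against 3 allows. The altered forms differed from GFP in the same directions, also without overlap (exact two-sided permutation p = 0.1 each). IER3 took 53.7% ± 0.861 in Mut_IDR3 and 55.6% ± 0.347 in dIDR3, and IER5 15.7% ± 1.08 and 15.4% ± 0.897. In GENCODE release 29, IER2 overlaps AC011446.2 and IER3 overlaps IER3-AS1, both antisense. The strand setting of the counting is not given in the sources used here, so reads of these pairs may not be separated.

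The ZFP36 genes encode zinc finger proteins that bind AU-rich elements and recruit the CCR4-NOT deadenylase, and all 3 rose in WT by unequal amounts. ZFP36 (tristetraprolin, chr19:39406813-39409412, plus strand) was at 22.6, 22.6 and 23.5 CPM in GFP and at 103.1, 95.5 and 103.4 in WT. It was at 24.9, 25.7 and 25.1 CPM in Mut_IDR3 and at 23.6, 24.1 and 23.3 in dIDR3. The 9 libraries outside WT lay within a few CPM of one another. The rise in WT was 2.13 ± 0.07 on the log2 scale (4.39-fold, adjusted p = 3.65e-12), and the 95% interval of the difference from GFP was 0.00 to 0.28 in Mut_IDR3 and -0.09 to 0.18 in dIDR3.

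ZFP36L1 (chr14:68787660-68796253, minus strand) was at 54.1, 45.4 and 50.7 CPM in GFP and at 80.2, 75.5 and 87.6 in WT. Its level was 57.7, 57.1 and 62.6 CPM in Mut_IDR3 and 69.7, 66.6 and 67.1 in dIDR3. No 2 groups overlapped, in the order GFP, Mut_IDR3, dIDR3 and WT, although the step from Mut_IDR3 to dIDR3 did not pass the test (adjusted p = 0.108). WT exceeded GFP by 0.69 ± 0.08 on the log2 scale (adjusted p = 2.08e-06), the smallest rise among the members called.

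ZFP36L2 (chr2:43222402-43226609, minus strand) was at 39.7, 39.2 and 40.1 CPM in GFP and at 103.0, 105.9 and 109.1 in WT. It was at 45.8, 49.0 and 42.9 CPM in Mut_IDR3 and at 47.3, 46.5 and 41.9 in dIDR3. The WT libraries stood far above the rest, and all GFP libraries were below all others. The rise in WT was 1.42 ± 0.07 on the log2 scale (2.67-fold, adjusted p = 5.12e-10).

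Per kb, ZFP36 made up 32.7% ± 1.26 of the summed level of the family in GFP and 51.0% ± 0.959 in WT (SD, n = 3). In Mut_IDR3 its share was 31.4% ± 0.275 and in dIDR3 28.4% ± 0.624. ZFP36L1 went the other way, from 40.0% ± 2.05 in GFP to 23.0% ± 0.811 in WT, with 41.1% ± 2.05 in Mut_IDR3 and 45.5% ± 0.935 in dIDR3. ZFP36L2 took 27.3% ± 0.834 in GFP and 26.0% ± 0.992 in WT, and these ranges overlapped. For ZFP36 and for ZFP36L1, WT and dIDR3 each differed from GFP without overlap (exact two-sided permutation p = 0.1, the smallest this design allows). Mut_IDR3 overlapped GFP for all 3 genes (exact two-sided permutation p = 0.3 for ZFP36 and 0.6 for ZFP36L1).

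**Figure D2:**
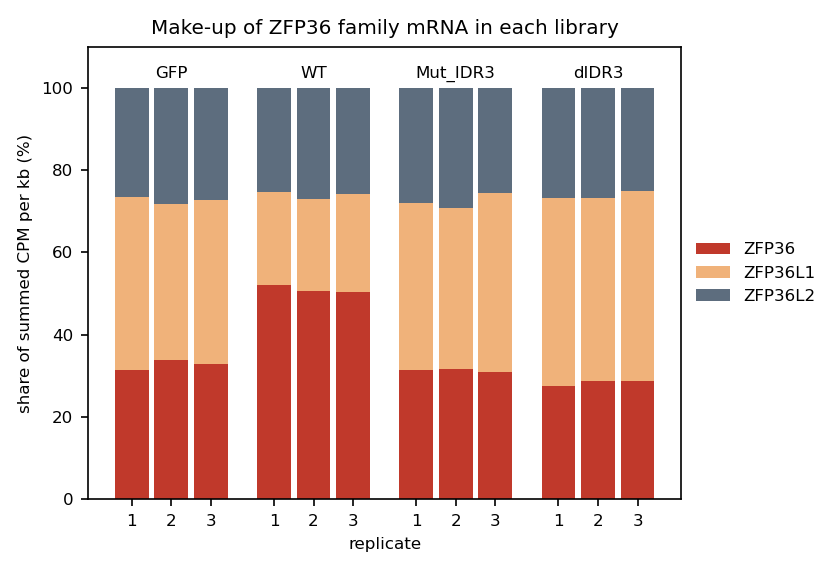
Share of the summed CPM per kb (%) of ZFP36, ZFP36L1 and ZFP36L2 in each of the 12 libraries, with replicates 1 to 3 side by side in each group. ZFP36 takes 50.4 to 52.1% in WT and 27.6 to 33.8% in the other libraries.

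KLF6 and KLF10 are Krüppel-like zinc finger factors; KLF6 is known as a growth suppressor and KLF10 as an early target of TGF-beta. KLF6 (chr10:3775996-3785281, minus strand) was at 38.1, 34.6 and 32.2 CPM in GFP and at 75.2, 84.3 and 80.1 in WT. It was at 39.1, 38.1 and 35.9 CPM in Mut_IDR3 and at 39.7, 38.3 and 37.5 in dIDR3. WT was the only group that stood apart, with a rise of 1.19 ± 0.08 on the log2 scale (2.29-fold, adjusted p = 1.06e-08).

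KLF10 (chr8:102648779-102655902, minus strand) was at 21.7, 20.6 and 20.8 CPM in GFP and at 21.6, 22.7 and 24.1 in WT. Its level was 21.3, 15.7 and 21.9 CPM in Mut_IDR3 and 24.6, 19.6 and 18.5 in dIDR3. All 4 groups overlapped, and the highest library of all was replicate 1 of dIDR3. The log2 difference of WT from GFP was 0.12 ± 0.13 (adjusted p = 0.459, 95% interval -0.15 to 0.39). That interval lies below the rises of the other 9 members. Per kb, KLF6 made up 56.6% ± 1.58 of the pair in GFP and 73.3% ± 1.08 in WT, without overlap (exact two-sided permutation p = 0.1).

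MYC (chr8:127735434-127741434, plus strand, 3 exons) is a basic helix-loop-helix factor that drives growth and ribosome production as a partner of MAX. It was at 20.1, 22.5 and 22.6 CPM in GFP and at 39.5, 40.4 and 38.0 in WT. In Mut_IDR3 it was at 19.8, 19.5 and 20.6 CPM, and in dIDR3 at 23.7, 21.6 and 23.6. WT libraries were the highest 3, and the dIDR3 libraries were all above those of Mut_IDR3. WT exceeded GFP by 0.85 ± 0.08 on the log2 scale (1.81-fold, adjusted p = 3.11e-07).

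Against WT, the same 9 members were lower in each altered form. In Mut_IDR3, 9 of 10 were called lower, beside 44.1% of all genes called and 20.9% called lower, and the members' median log2 fold change was -1.13 (0.03 over all genes). In dIDR3, 9 of 10 were called lower, beside 52.3% called and 25.0% called lower, with a median of -1.12 (0.03 over all genes). After EGR1, the largest falls were those of ZFP36, 3.99-fold in Mut_IDR3 (adjusted p = 7.55e-12) and 4.25-fold in dIDR3 (adjusted p = 3.68e-12). IER3 was 3.15-fold lower in Mut_IDR3 and 2.89-fold lower in dIDR3, and MYC 1.97-fold and 1.71-fold lower. The smallest falls called were those of ZFP36L1, -0.46 ± 0.07 on the log2 scale in Mut_IDR3 (adjusted p = 0.000186) and -0.26 ± 0.07 in dIDR3 (adjusted p = 0.00888). KLF10 differed from WT by -0.22 in Mut_IDR3 and -0.13 in dIDR3 on the log2 scale, neither past the test. All 3 WT libraries were above the other 9 for 9 members, beside 17.2% of all genes tested. A rise in WT together with a fall in both altered forms was found for 9 members and for 16.1% of all genes tested. The comparisons share the WT libraries, and a high WT value enters each of them.

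Against GFP, 3 of 10 members were higher in Mut_IDR3, beside 21.1% of all genes called and 11.2% called higher, and 3 of 10 in dIDR3, beside 29.0% called and 15.6% called higher. The 3 were IER3, ZFP36L1 and ZFP36L2 in both. The members' median log2 fold change was 0.12 in Mut_IDR3 and 0.13 in dIDR3, beside -0.01 and -0.02 over all genes. IER3 rose by 0.36 ± 0.07 in Mut_IDR3 (1.28-fold, adjusted p = 0.0022) and by 0.48 ± 0.07 in dIDR3 (1.40-fold, adjusted p = 8.66e-05). ZFP36L1 rose by 0.24 ± 0.08 (adjusted p = 0.036) and by 0.44 ± 0.08 (1.35-fold, adjusted p = 0.000596). ZFP36L2 rose by 0.21 ± 0.07 (adjusted p = 0.0393) and by 0.19 ± 0.07 (adjusted p = 0.0491). For these 3 members all GFP libraries were below the other 9, which held for 9.85% of all genes tested. Both comparisons share the GFP libraries.

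Several of these smaller calls did not last. Leaving out single libraries ended the call of ZFP36L1 in Mut_IDR3 in 7 of 12 refits (adjusted p from 0.022 to 0.17), that of ZFP36L2 in Mut_IDR3 in 7 of 12 (0.0343 to 0.178) and that of ZFP36L2 in dIDR3 in 8 of 12 (0.0383 to 0.221). Over these refits the log2 fold change ran from 0.16 to 0.29, from 0.16 to 0.26 and from 0.14 to 0.22. Of 9 other alternatives, 7 ended the call of ZFP36L2 in dIDR3 and 4 that in Mut_IDR3. With the trend of the counts along the genes' GC content removed, Mut_IDR3 kept none of its 3 calls: IER3 was at 0.20 (adjusted p = 0.0692), ZFP36L1 at 0.17 (0.148) and ZFP36L2 at 0.07 (0.49), and MYC was called lower at -0.26 (0.0328). In dIDR3 the same step ended only the call of ZFP36L2 (0.08, adjusted p = 0.348), with IER3 at 0.37 and ZFP36L1 at 0.36.

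**Figure D3:**
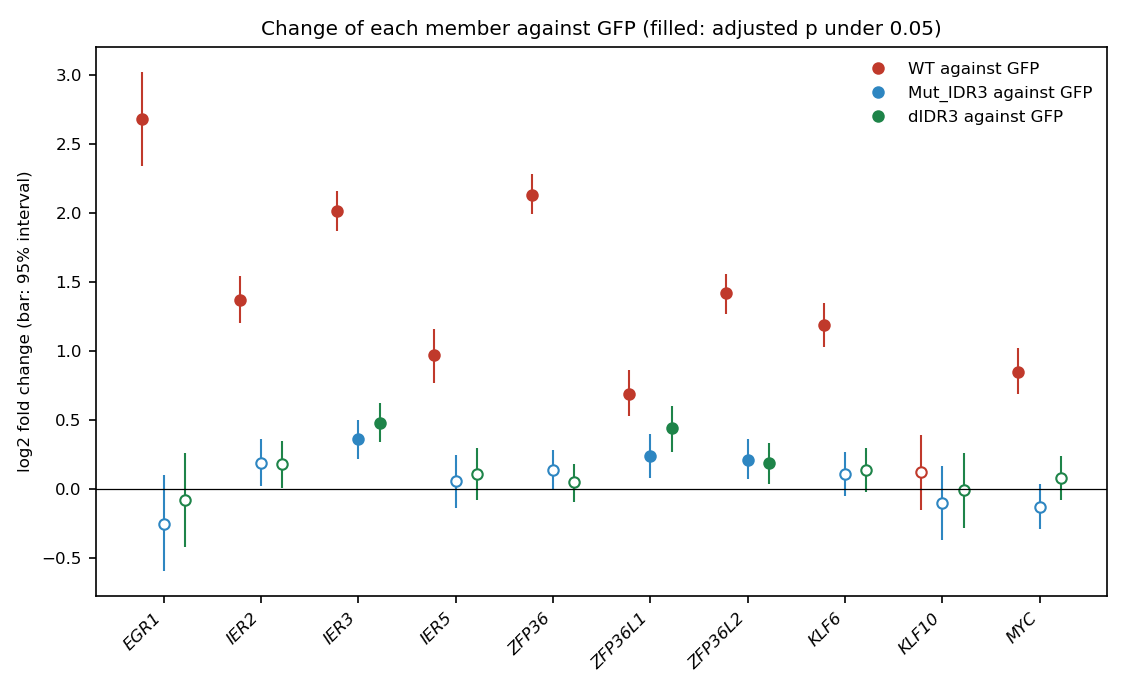
Log2 fold change against GFP of each member in WT, Mut_IDR3 and dIDR3, with 95% intervals; filled points passed an adjusted p of 0.05. WT was called higher for 9 members, and the 3 intervals of KLF10 all cross 0.

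Between the altered forms, none of the 10 members was called by edgeR (0 of 10, beside 10.8% of all genes tested), nor by DESeq2 or limma-voom (0 each). At an unadjusted p under 0.05 there were 2 members: MYC, at -0.20 on the log2 scale in Mut_IDR3 relative to dIDR3 (95% interval -0.37 to -0.04, adjusted p = 0.103), and ZFP36L1, at -0.20 (-0.36 to -0.04, adjusted p = 0.108). When only these 2 groups were fitted, ZFP36L1 was called (-0.19, adjusted p = 0.0473). For EGR1 the interval of the difference was -0.50 to 0.18, for ZFP36 -0.04 to 0.23 and for IER3 -0.26 to 0.01. The data are compatible with differences within those limits, and the 2 forms are not shown to be alike.

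In GC content 8 of 10 members are above the median of 49.3% over genes tested, ZFP36L1 (49.53%) and IER5 (49.76%) only just. The values run from 45.92% for KLF6 to 61.69% for IER2, and KLF10, at 47.23%, is also below the median. With the GC trend removed, WT over GFP was 2.40 for EGR1, 1.04 for IER2, 1.68 for IER3, 0.84 for IER5 and 1.81 for ZFP36 on the log2 scale. It was 0.58 for ZFP36L1, 1.15 for ZFP36L2, 1.26 for KLF6, 0.11 for KLF10 and 0.60 for MYC. The same 9 members were called.

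Of 28 other immediate early genes and close relatives, 26 were tested. In WT against GFP 23 of them were higher, 2 lower and 1 not called, with a median log2 fold change of 1.37. The shares over all genes tested were 54.9% called and 27.7% called higher. CYR61, a secreted matrix protein, rose by 2.78 (adjusted p = 7.49e-16), PPP1R15A, a phosphatase subunit of the stress response, by 2.34 (7.71e-12) and KLF4 by 3.08 (1.48e-11). ATF3, a stress-induced factor, rose by 1.82 (8.91e-11). The lower genes were KLF5 (-0.24, adjusted p = 0.0146) and CCNL1 (-0.55, 0.00131, and -0.29 with the GC trend removed). KLF5 was not called without replicate 2 of GFP (adjusted p = 0.0617). IER5L, the nearest relative of IER5, was the gene not called, at 0.02 (adjusted p = 0.812), and with the GC trend removed it was called lower, at -0.30 (0.000647). In Mut_IDR3 against GFP 6 of the 26 were higher and 2 lower, and in dIDR3 likewise 6 and 2, with medians of 0.16 and 0.12. All genes tested were called higher in 11.2% and 15.6% of cases. EGR4 had no count in any GFP or Mut_IDR3 library and passed the filter through WT, where it was at 0.382 CPM. Counted as if it had 3 reads per such group, it left the medians at 1.37 in WT and 0.12 in dIDR3. Without EGR4 the median in Mut_IDR3 was 0.17. With the GC trend removed, 3 were higher in Mut_IDR3. CYR61 rose in both, by 0.70 (adjusted p = 8.76e-08) and 1.16 (8.11e-11). Against WT, 21 of 26 were lower in Mut_IDR3 and 19 in dIDR3, beside 20.9% and 25.0% of all genes tested. The AP-1 factors, the FOS and JUN genes, were called higher in WT in 7 of 7 cases (median 1.15), from 0.45 for FOSL2 to 2.56 for FOSL1. Of these, 6 of 7 were called with the GC trend removed (median 0.82), without replicate 1 of GFP, or without replicate 1 of WT.

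The genes of the route to SRF moved in both directions. Of 18 members of the ERK and SRF arm, 7 were higher in WT, 6 lower and 5 not called, with a median of 0.06. Beside them, 54.9% of all genes tested were called and 27.7% called higher. SRF itself rose by 0.92 (adjusted p = 8.68e-07, and 0.58 with the GC trend removed), and the kinase MAP2K1 by 0.51 (7.38e-07). MKL2, a coactivator of SRF, fell by 0.86 (adjusted p = 3.62e-07). The EGR1 repressors NAB1 and NAB2 were at -0.69 (1.36e-05) and 0.24 (0.0213), and neither was called with the GC trend removed (-0.16 and -0.10). That step left 4 of the 18 higher and 4 lower. These are mRNA levels, and kinase activity was not measured.

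Around MYC, 4 of 14 tested genes of its network were higher in WT, 4 lower and 6 not called, with a median of 0.09. This is near the share over all genes tested, of which 54.9% were called and 27.7% called higher. MXD1, which competes with MYC for MAX, rose by 1.86 (adjusted p = 5.83e-10) and PIM1, a kinase that stabilises MYC, by 1.32 (1.8e-10). MGA, another MAX partner, fell by 1.01 (adjusted p = 9.87e-07, and by 0.63 with the GC trend removed). Of 24 genes known as MYC targets, 8 were higher in WT, 9 lower and 7 not called, with a median of 0.00. With the GC trend removed 5 were higher and 13 lower. SRM, a polyamine synthase, rose by 0.90 (adjusted p = 1.16e-08), while the nucleolar genes DDX21 and GNL3 fell by 1.14 (1.66e-08) and 0.90 (4.72e-08) and the chaperone HSPD1 by 0.67 (2.03e-07). With the GC trend removed SRM was at 0.58 and DDX21 at -0.70. In dIDR3 against GFP, where MYC itself was not called (0.08, 95% interval -0.08 to 0.24), 16 of the 24 were higher, 1 lower and 7 not called. Their median was 0.23, and 29.0% of all genes tested were called and 15.6% called higher. Among the MYC targets ODC1, the first enzyme of polyamine synthesis, rose by 0.79 (adjusted p = 6.43e-08), RRS1 by 0.64 (1.23e-05), NOP56 by 0.58 (4.19e-06) and NCL by 0.35 (0.000293). In Mut_IDR3 against GFP 6 were higher and 5 lower, beside 21.1% of all genes tested called and 11.2% called higher.

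Among mRNAs known to carry AU-rich elements bound by ZFP36 proteins, 16 of 20 were tested. In WT 13 of them were higher, 1 lower and 2 not called, with a median of 1.62. Beside these, 54.9% of all genes tested were called and 27.7% called higher. TNF and CXCL8 were near the floor, at 0.0386 and 0.211 CPM in GFP and 0.717 and 1.48 in WT. TNF and CXCL8 passed the filter through WT, where they are high, and TNF had no count in any Mut_IDR3 library. They enter the count and median above that way, and likewise the counts against WT below. PLAUR, the urokinase receptor, rose by 3.06 (adjusted p = 1.58e-13), its ligand PLAU by 1.50 (2.43e-10) and the cytokine IL6 by 4.09 (1.42e-08). The gene called lower was IL1B, at -1.05 (adjusted p = 1.21e-06), which was also lower than GFP in Mut_IDR3 (-1.10, 3.22e-05) and dIDR3 (-1.11, 4.15e-06). Against WT 12 of the 16 were lower in each altered form, beside 20.9% of all genes tested in Mut_IDR3 and 25.0% in dIDR3. Of 16 genes that work with ZFP36 proteins in mRNA decay or on the same elements, 5 were higher in WT, 8 lower and 3 not called, with a median of -0.23. This count turned with the GC trend removed, to 7 higher and 2 lower with a median of 0.13. The CCR4-NOT subunits CNOT1 and CNOT2 were at -0.35 (adjusted p = 4.99e-05) and -0.71 (6.84e-07), and CNOT3 at 0.51 (1.19e-05). With the GC trend removed they were at -0.23, -0.02 and 0.18, and CNOT2 was no longer called (adjusted p = 0.852).

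Of the other KLF genes, 11 of 13 were tested, and in WT 6 were higher, 2 lower and 3 not called, with a median of 0.35. For this list and the next, the shares over all genes tested were 54.9% called and 27.7% called higher. KLF4 and KLF2 rose most among those called, by 3.08 and 2.11 (adjusted p = 1.48e-11 and 1.04e-05). KLF16 rose by 0.75 (adjusted p = 1.99e-05) and KLF3 by 0.49 (0.000247), at 0.42 and 0.90 with the GC trend removed. Of 13 early TGF-beta response genes, the setting in which KLF10 is best known, 7 were higher in WT, 4 lower and 2 not called, with a median of 0.29 (-0.04 with the GC trend removed). TGIF1, a corepressor of SMADs, rose by 1.16 (adjusted p = 9.24e-08). ID1 fell by 1.03 (adjusted p = 2.34e-06).

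**Figure D4:**
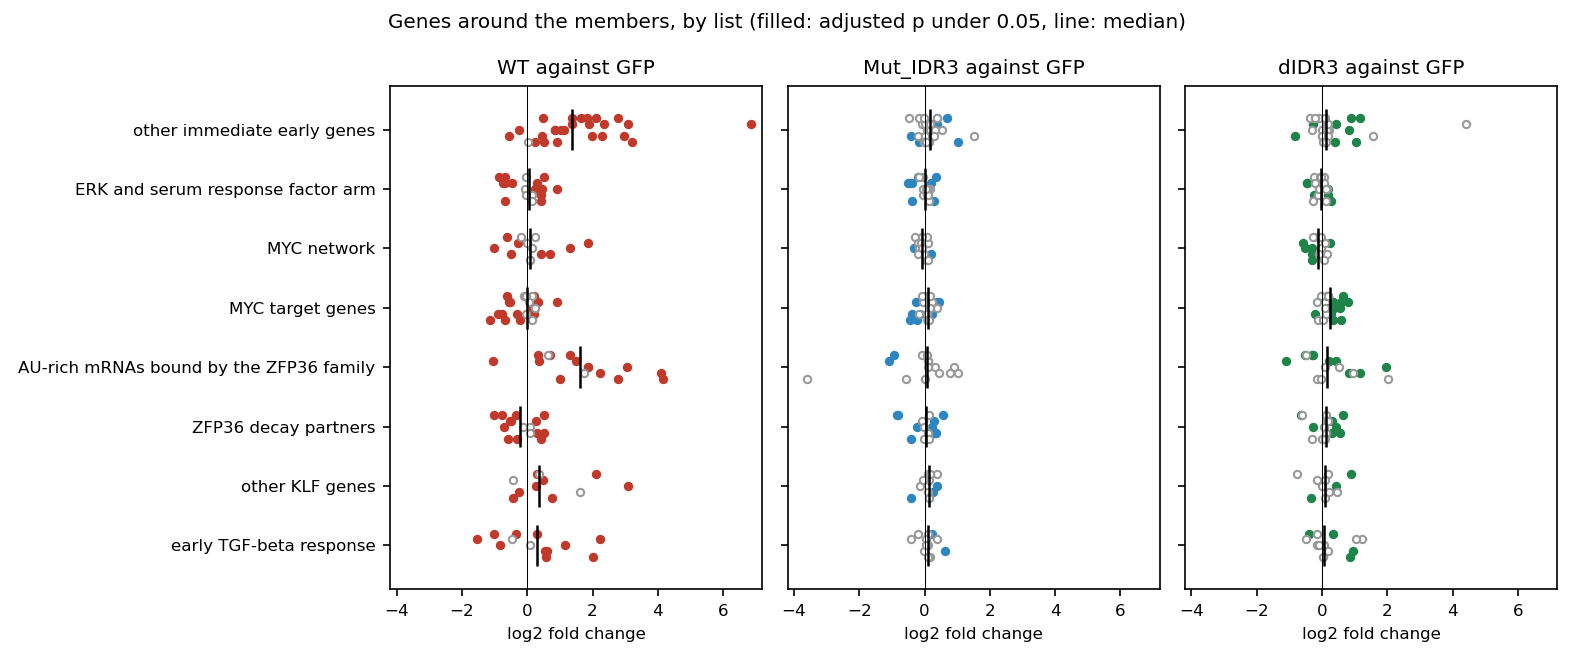
Log2 fold change against GFP of each tested gene in 8 lists around the members, in WT, Mut_IDR3 and dIDR3; filled points passed an adjusted p of 0.05 and the black line is the list's median. The fitted points of EGR4, at 0 in GFP and Mut_IDR3, are no bounds, nor is that of TNF in Mut_IDR3, where it is at 0. EGR4, TNF and CXCL8 passed the filter on low counts through WT, where they are high. In WT the medians of the other immediate early genes and the AU-rich mRNAs are 1.37 and 1.62, and those of the ERK and SRF arm and the MYC targets are 0.06 and 0.00.

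The genes whose profile over the 12 libraries was most like that of EGR1, by the root mean square difference of centred log2 CPM among 9892 genes, were PLAUR (0.24), PMAIP1 (0.28), ZC3HAV1 (0.28), KLF4 (0.33) and IFIH1 (0.33), where the median gene was at 1.24. PMAIP1 is a BH3-only death protein, and ZC3HAV1 and IFIH1 are sensors of viral RNA. Among the members ZFP36 was nearest to EGR1 (0.39) and KLF10 farthest (1.17). Those most like MYC were MAP4K4 (0.06), PRSS23 (0.06), SIK1B (0.06), SAR1A (0.07) and CD44 (0.07), where the median gene was at 0.43. SIK1B is a near-identical copy of SIK1, and its counts are uncertain. MAP4K4 is a kinase, PRSS23 a protease, SAR1A a GTPase of secretory transport and CD44 the hyaluronan receptor. IER5 was the member nearest to MYC (0.13). The points share libraries and depth, and likeness of profile is a description only.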

How the data were processed

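Members and gene lists were chosen with earlier results of these data known. RNA came from 12 KYSE150 libraries in 4 groups of 3. The authors deposited raw counts per gene; the submitters' processing notes name Trim Galore, HISAT2, StringTie and the build GRCh38/hg38, while versions, the counting program and the strand setting are not given in the sources used here. All 19974 Ensembl identifiers of the table were found in GENCODE release 29, whose longest coding transcript gave length and GC content. The other 4328 features, named NewGene, have neither.

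Counts were scaled by TMM and filtered by filterByExpr, and 14792 genes were fitted over all 4 groups with the quasi-likelihood test of edgeR 4.0.16 (R 4.3.3, 8 residual degrees of freedom). P-values were Benjamini-Hochberg adjusted over all genes, with 0.05 as threshold. All members are given; of each list, up to 4 genes of lowest adjusted p in WT against GFP, with further genes as examples. A gene that this rule would name is not reported here. The 5 genes most like EGR1 or MYC come from those with an established symbol and at least 5 CPM. Alternatives were scaling by median ratios or upper quartiles, other filters, DESeq2 1.42.0, limma-voom (limma 3.58.1), a fit of 2 groups, a replicate block, an offset for GC content in 20 bins and leaving out each library. The functions were tested on simulated data. Totals of 30652851 to 43464956 counts limit precision for counting error only.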

Additional observations from a re-analysis of the deposited data

How the results depend on the processing

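All 9 calls among the members in WT against GFP, Mut_IDR3 against WT and dIDR3 against WT held under every alternative run, including each left-out library. Relative to GFP, Mut_IDR3 had 3 members called, 1 with the GC trend removed and 1 to 3 without single libraries, where genes called ran from 1566 to 3796 (3114 with all). In dIDR3 2 to 3 members were called without single libraries. Mut_IDR3 against dIDR3 had 1 member called when only these groups were fitted, and 819 to 2265 genes without single libraries (1594 with all). The replicate numbers do not pair the samples: 18 same-numbered pairs had correlations of -0.07 to 0.08, 0 of them over 0.1. With the replicate block, ZFP36L2 was not called in Mut_IDR3 (0.21, adjusted p = 0.058) or dIDR3 (0.19, 0.0691), and no other member's call changed; genes called were 7932 in WT, 2795 in Mut_IDR3 and 3984 in dIDR3 against GFP.

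Among the members and the list genes followed singly through every alternative, signs turned only for differences not called in the full fit, apart from NAB2. The remaining list genes were not followed singly. With the GC trend removed, Mut_IDR3 minus GFP was -0.01 for IER5 and -0.02 for ZFP36, dIDR3 minus GFP -0.07 for ZFP36 and -0.03 for MYC, and Mut_IDR3 minus dIDR3 -0.07 for IER2, -0.01 for ZFP36L2 and 0.01 for KLF6. In WT, NAB2 was at -0.10 and IER5L at -0.30, and IER5L was at -0.00 under upper-quartile scaling and -0.02 to 0.06 without single libraries. Leaving out single libraries gave, for Mut_IDR3 minus GFP, -0.19 to 0.04 for KLF10. For dIDR3 minus GFP it gave -0.23 to 0.08 for EGR1, -0.04 to 0.17 for IER5 and -0.16 to 0.05 for KLF10. For Mut_IDR3 minus dIDR3 it gave -0.02 to 0.06 for IER2, -0.12 to 0.09 for IER5, -0.03 to 0.07 for ZFP36L2, -0.05 to 0.00 for KLF6 and -0.18 to 0.05 for KLF10. The cause was not tested. Groups of 3 limit what small differences can show.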
